A study of Mus musculus with 8 samples.

Results

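The genes described here encode the middle module of the mouse Mediator complex and its scaffold: Med1, Med4, Med7, Med9, Med10, Med14, Med19, Med21, Med26 and Med31. They were chosen by name, as the rows of the deposited expression table whose gene symbol is one of these 10. They make up 10 of the 34976 symbols in usable rows, and 34 of the 93738 usable transcript rows. A gene's level is the sum of its transcript rows in FPKM (fragments scaled by transcript length and library total), so levels of different genes are compared per length.

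The study asked how MED13, a subunit of the Mediator kinase module, bears on the start of transcription in the embryo. The embryos came from outbred CF-1 mice, were injected at the early 1-cell stage and gave RNA at the late 2-cell stage. The Med13-MO group received a morpholino whose target the labels give as the Med13 start site, and the Scr-MO group received a scrambled morpholino, with 4 libraries in each group. Within a group, each library came from its own collection of 40 pooled embryos. Both groups carried the injection itself, so uninjected embryos are not part of the comparison.

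Mediator carries signals from DNA-bound transcription factors to RNA polymerase II. Its head and middle modules contact the polymerase, its tail contacts many activators, and MED14 runs as a scaffold through all of them. A separate kinase module, made of CDK8 or CDK19 with cyclin C, MED12 and MED13, binds the core through MED13 and competes with the polymerase for it. The 2-cell stage is when most of the mouse embryonic genome is first transcribed, beside transcripts that the oocyte left behind.

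Med13 transcripts were measured at 43.9, 39.4, 41.7 and 43.8 FPKM in the 4 Med13-MO libraries, against 41.1, 38.5, 38.2 and 47.5 FPKM in the 4 Scr-MO libraries. The means were 42.2 ± 2.14 and 41.3 ± 4.31 FPKM (SD, n = 4 each), and the groups overlapped (two-sided exact permutation test, p = 0.629, where the smallest p that 70 assignments allow is 0.0286). A morpholino can block splicing or translation without lowering a transcript, so the Med13 level does not check the labels, and MED13 protein was not analysed here.

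The libraries held 31378977 to 48050262 fragments, read back from the steps between low values, with each step taken as 0.5 fragments. The fragment counts of genes and rows given below rest on the same assumption. Libraries of a group resembled each other more (mean correlation across genes 0.966) than libraries of different groups (0.929). Scr-MO replicate 2 stood apart on the second principal component, and its 10 most abundant genes took 20.8% of its summed FPKM, against 16.4% to 17.5% in the Med13-MO libraries and 13.0% to 13.8% in the other Scr-MO libraries. Oocyte markers were present throughout, led by Oosp1, Bmp15 and Gdf9. Their summed level was 345 to 440 FPKM in Med13-MO libraries and 109 to 139 FPKM in Scr-MO libraries. Of 10 tested, 6 were called higher and 0 lower, against 9.29% and 7.81% of all genes tested in limma. Npm2 and Kit were lower on average and did not pass (log2 differences -0.44 and -0.40, limma adjusted p = 0.0873 and 0.134). Mos, too low to be tested, was also lower (0.289 FPKM in Med13-MO and 0.466 FPKM in Scr-MO). Markers of the 2-cell stage, led by Zfp352, Dppa2 and Tdpoz1, summed to 244 to 351 FPKM in Med13-MO libraries and 171 to 238 FPKM in Scr-MO libraries. Of 11 tested, 7 were called higher and 2 lower, against the same shares of all genes tested. Dppa2 was 1 of the 2 lower markers, at 44.6 ± 6.46 FPKM in Med13-MO and 84.1 ± 15.7 FPKM in Scr-MO. Cumulus cell markers summed to 12.4 to 16.8 FPKM in Med13-MO libraries and 10.3 to 16.2 FPKM in Scr-MO libraries, mostly from Amhr2. Sperm markers stayed at 0.197 to 0.465 FPKM in Med13-MO libraries and 0.123 to 0.946 FPKM in Scr-MO libraries. Blood markers stayed at 1.14 to 2.06 FPKM in Med13-MO libraries and 1.16 to 3.47 FPKM in Scr-MO libraries. The part of these marker differences in the results that follow was not tested. In pooled embryos, less RNA per embryo and fewer embryos with the transcript cannot be told apart.

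Of the 10 genes, Med26 was higher and Med14 lower in Med13-MO embryos, and the other 8 did not pass the test. All 10 had a mean of at least 1 FPKM over the 8 libraries and were tested. The 2 calls are 20% of the members, against 17.1% of all 11755 genes tested (limma on log2(FPKM + 1), Benjamini-Hochberg adjusted p below 0.05). The share of members called is therefore near the background. By direction, 1 of 10 was higher, where 9.29% of all genes were, and 1 of 10 was lower, where 7.81% were. The median log2 difference of the members was 0.11, against -0.06 over all genes tested. In 3 of 10 members the groups did not overlap, against 21.6% of all genes tested.

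**Figure D1:**
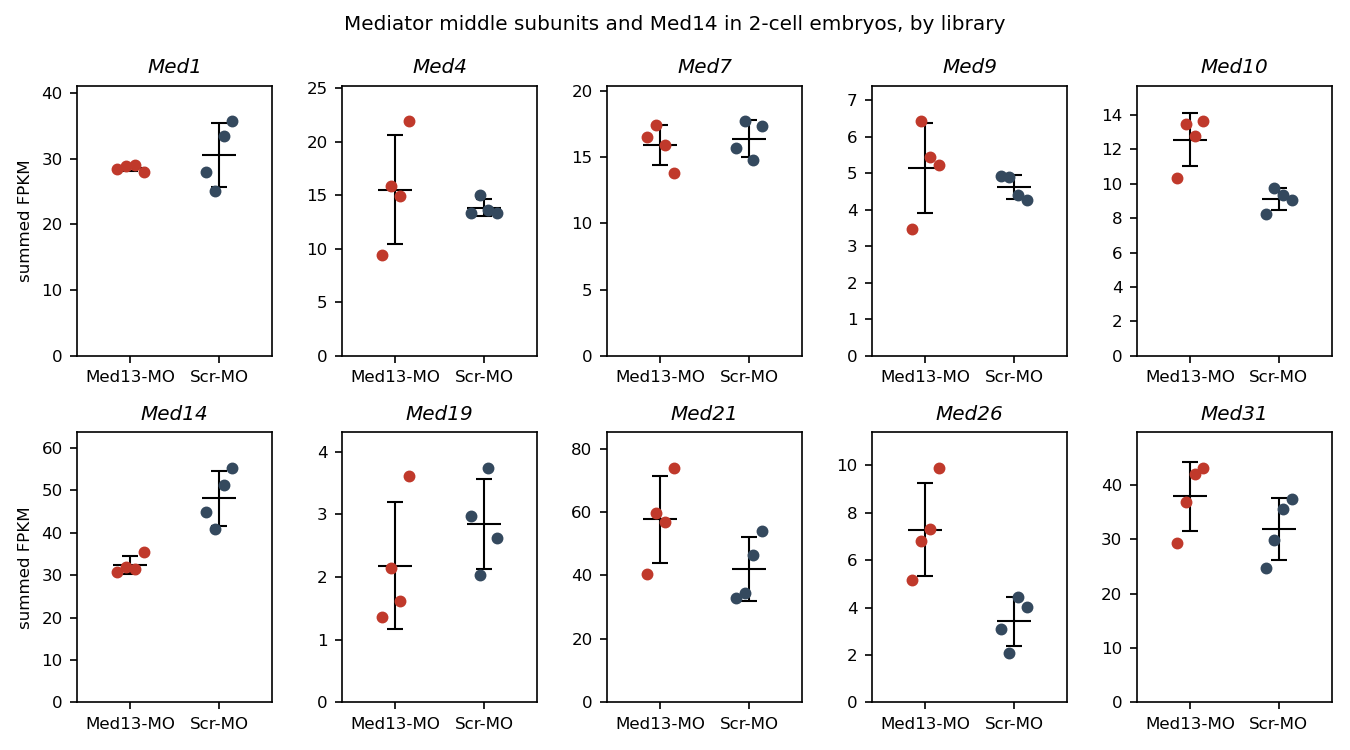
Summed FPKM of each of the 10 genes in the 4 Med13-MO libraries (red, left in each panel) and the 4 Scr-MO libraries (blue, right). Points are libraries in replicate order, long bars are means and whiskers are SD. The groups separate for Med10, Med14 and Med26 and overlap for the other 7 genes.

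Med14 encodes the scaffold on which the head, middle and tail modules are held, and it lies on chromosome X (GRCm38, X:12675369-12762073, minus strand). Its level was 30.9, 32.0, 31.4 and 35.4 FPKM in the 4 Med13-MO libraries, against 44.9, 40.9, 51.3 and 55.4 FPKM in the 4 Scr-MO libraries. Every Med13-MO library was below every Scr-MO library, and the Med13-MO libraries lay closer together. The means were 32.4 ± 2.07 and 48.1 ± 6.45 FPKM (SD, n = 4 each), a ratio of 0.674. The log2 difference was -0.55 ± 0.15 (SE; limma adjusted p = 0.0286), with a 95% interval of 0.544 to 0.860 as a fold of FPKM + 1. The call was lost without Med13-MO replicate 1 (limma adjusted p = 0.0520), 2 (0.0855) or 3 (0.0770) and without Scr-MO replicate 3 (0.0899) or 4 (0.0833), and with no filter on low genes (0.0614). It held without Scr-MO replicate 2 (-0.62, limma adjusted p = 0.0160).

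The table splits Med14 into 5 annotated transcripts, and the fall was clearest in Med14-202, the full-length coding transcript of 31 exons and 6963 bases. Its last exon (X:12675369-12677651, 2283 bases) is in no other Med14 row, so fragments in that exon come from this transcript alone among the annotated ones. That exon holds 32.8% of the bases of Med14-202, and fragments were not counted by exon here. The value of the whole row also rests on how fragments in the shared bases were divided among rows, which the sources used here do not give. The reading frame runs from exon 30 into this exon, and the join is printed here because it is the sequence that sets Med14-202 apart. The transcript strand is given 5′ to 3′, with the end of exon 30 in lower case and the 71 coding bases of the last exon in capitals (GENCODE M21, GRCm38).
Med14-202: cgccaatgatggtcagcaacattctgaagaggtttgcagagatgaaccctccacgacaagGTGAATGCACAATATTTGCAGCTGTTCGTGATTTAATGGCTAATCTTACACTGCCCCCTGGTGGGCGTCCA

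Med14-202 had 10.3, 10.5, 11.02 and 11.3 FPKM in the 4 Med13-MO libraries, against 16.6, 18.6, 17.3 and 19.7 FPKM in the 4 Scr-MO libraries. The groups were far apart and each was tight, with SDs of 0.455 FPKM in Med13-MO and 1.40 FPKM in Scr-MO. The means were 10.8 and 18.1 FPKM, and the log2 difference was -0.69 ± 0.15 (SE; limma adjusted p = 0.00850 over 21052 transcript rows). Unlike the summed level, this transcript passed without each library in turn, with adjusted p up to 0.0384 in limma. The other 4 Med14 rows were also lower on average, with log2 differences of -0.31 to -0.43, and none passed (limma adjusted p of 0.118 to 0.160).

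Med14-201, a shorter coding transcript with its own last exon, had 7.32 ± 0.205 FPKM in Med13-MO and 9.73 ± 1.21 FPKM in Scr-MO, with no overlap between the groups. Med14-203, a coding transcript of 16 exons, had 6.23 ± 0.895 FPKM in Med13-MO and 8.91 ± 2.53 FPKM in Scr-MO, and the retained-intron transcript Med14-204 had 7.14 ± 0.553 FPKM in Med13-MO and 10.001 ± 2.16 FPKM in Scr-MO. Scr-MO replicate 2 was the lowest Scr-MO library in both rows, and also in Med14-201 (7.96 FPKM) and Med14-205 (1.09 FPKM). In Med14-202 it was not the lowest, at 18.6 FPKM, and the reason was not tested. A test of isoform usage, which asks whether the rows of a gene moved by different amounts, gave an unadjusted p of 0.369 for Med14 (limma diffSplice), so a change particular to Med14-202 was not shown.

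**Figure D2:**
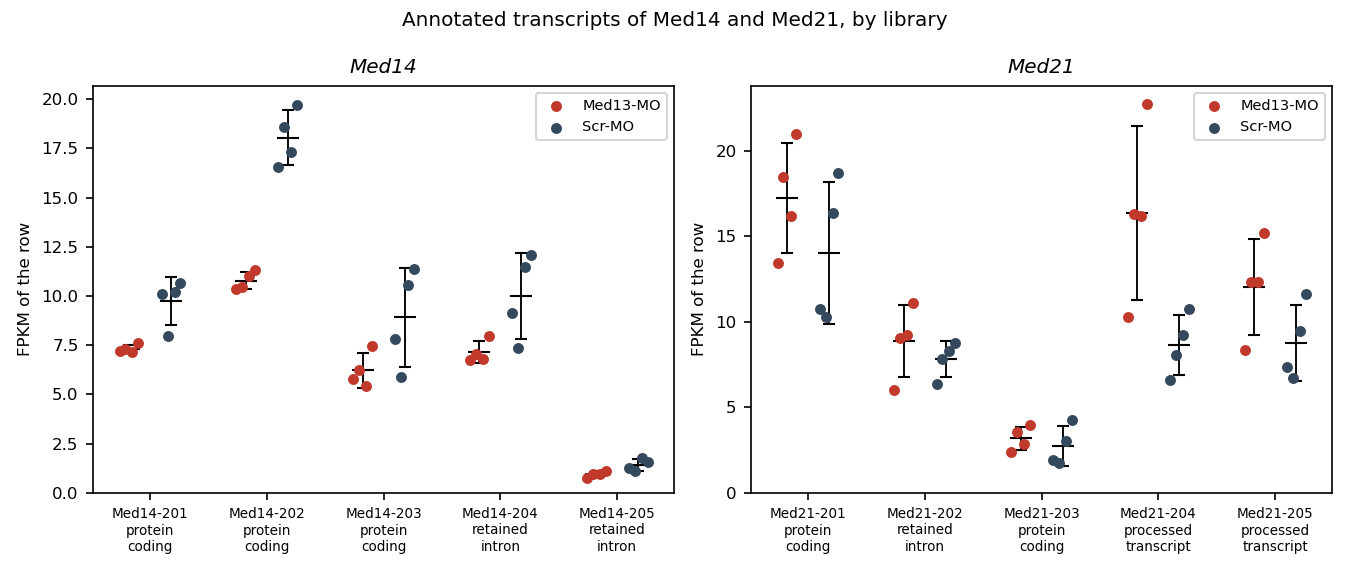
FPKM of each annotated transcript of Med14 (left) and Med21 (right) in Med13-MO libraries (red) and Scr-MO libraries (blue), with means and SD. Med14-202 shows a gap between 11.3 FPKM, its highest Med13-MO value, and 16.6 FPKM, its lowest Scr-MO value, and Med21-204 is the Med21 transcript with the greatest log2 difference.

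Med26 is the subunit that recruits elongation factors such as ELL and EAF proteins to the polymerase, and its binding to Mediator and that of the kinase module are largely mutually exclusive. The gene (8:72494561-72548270, minus strand) is in the table as 1 row. Its level was 5.15, 6.81, 7.30 and 9.90 FPKM in the 4 Med13-MO libraries, against 3.12, 2.10, 4.45 and 4.02 FPKM in the 4 Scr-MO libraries. The lowest Med13-MO library was above the highest Scr-MO library, though by less than the spread within either group. The means were 7.29 ± 1.97 and 3.42 ± 1.04 FPKM (SD, n = 4 each), a ratio of 2.13.

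The log2 difference of Med26 was 0.91 ± 0.22 (SE; limma adjusted p = 0.0146), with a 95% interval of 1.36 to 2.60 as a fold of FPKM + 1. It passed without each library in turn (limma adjusted p of 0.0148 to 0.0416). Without Scr-MO replicate 2, its lowest library, the difference was 0.75, and with no filter on low genes the call was lost (limma adjusted p = 0.0636). Of the exonic bases of Med26, 381 (12.7%) overlap the antisense gene Gm17435, and the sources used here do not give whether counting used the strand. Gm17435 ran the other way, at 0.543 ± 0.163 FPKM in Med13-MO and 1.24 ± 0.546 FPKM in Scr-MO, and was below the filter.

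Genes for elongation factors that work with MED26 were described beside it from a list of 16, all of which were tested. Of these, 0 were called higher and 2 lower, which is 12.5% against 17.1% of all genes tested. An unadjusted p below 0.05 in limma was found for 4 of them (25%), against 32.4% of all genes tested, and the median log2 difference was -0.09. The list was therefore called no more often than the background. Ell2, an elongation factor of the super elongation complex, was lower, at 39.2 ± 4.66 FPKM in Med13-MO and 61.3 ± 4.67 FPKM in Scr-MO (log2 difference -0.64, limma adjusted p = 0.0149), but not without Med13-MO replicate 2 (limma adjusted p = 0.0508). Mllt1, which encodes the super elongation complex reader ENL, was lower at 1.38 ± 0.233 FPKM in Med13-MO and 3.19 ± 1.12 FPKM in Scr-MO (-0.78, limma adjusted p = 0.0178). The Mllt1 call was lost without Med13-MO replicate 3 or Scr-MO replicate 3 (limma adjusted p = 0.0535 and 0.0532) and with no filter (0.0706).

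Med10 encodes a small subunit that sits next to MED14 at the base of the middle module. Its level was 10.3, 13.5, 12.8 and 13.6 FPKM in the 4 Med13-MO libraries, against 8.24, 9.77, 9.37 and 9.04 FPKM in the 4 Scr-MO libraries. The groups did not overlap, with Med13-MO replicate 1 nearest to the Scr-MO range. The log2 difference of 0.42 ± 0.15 (SE) did not pass (limma adjusted p = 0.0711), and its 95% interval was 1.07 to 1.67 as a fold of FPKM + 1. It passed without Med13-MO replicate 1 (limma adjusted p = 0.0460), with median-ratio scaling (0.0422), with quantile normalization (0.0410) and with sample weights (0.00832). Most of the exonic bases of Med10 (90.9%) overlap the antisense gene Gm26819, which had 1.21 ± 0.229 FPKM in Med13-MO and 0.858 ± 0.101 FPKM in Scr-MO, and without strand in the counting, which the sources do not give, reads of both genes cannot be told apart in the shared bases (13:69802395-69816104, plus strand).

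Med21 encodes a subunit that pairs with MED7 along the middle module and forms its hinge. Its level was 40.5, 59.7, 56.8 and 74.0 FPKM in the 4 Med13-MO libraries, against 33.0, 34.6, 46.4 and 54.1 FPKM in the 4 Scr-MO libraries. The libraries of both groups were widely spread and overlapped, with Med13-MO replicate 1 inside the Scr-MO range. The summed level averaged 57.7 ± 13.7 FPKM in Med13-MO and 42.0 ± 10.04 FPKM in Scr-MO (SD, n = 4 each). Its log2 difference was 0.45 ± 0.22 (SE; limma adjusted p = 0.172), with a 95% interval of 0.987 to 1.88 as a fold of FPKM + 1. Antisense genes overlap 17.75% of the exonic bases of Med21.

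Med21 has 5 annotated transcripts, 3 of which differ at exon 2 (6:146648165-146648279, 115 bases), and the 1 that passed, Med21-204, is the processed transcript that skips it. Med21-205, also annotated as processed, keeps the last 24 bases of exon 2, and the coding transcript Med21-201 keeps all of it. Read from the start codon of Med21-201, the frame holds 22 codons before the first stop in Med21-204, 30 in Med21-205 and 144 in Med21-201. The sequences across exon 2 are printed to show what separates these rows, with 30 bases of exon 1 and 30 of exon 3 in lower case and the exon 2 bases kept in capitals (GENCODE M21, GRCm38, 6:146642547-146650732, plus strand). In Med21-204, which has no exon 2 bases, the capitals mark the 4 bases that span the join.
Med21-204: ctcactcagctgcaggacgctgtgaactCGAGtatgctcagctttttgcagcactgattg
Med21-205: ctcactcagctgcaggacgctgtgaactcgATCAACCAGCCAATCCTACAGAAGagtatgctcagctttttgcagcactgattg
Med21-201: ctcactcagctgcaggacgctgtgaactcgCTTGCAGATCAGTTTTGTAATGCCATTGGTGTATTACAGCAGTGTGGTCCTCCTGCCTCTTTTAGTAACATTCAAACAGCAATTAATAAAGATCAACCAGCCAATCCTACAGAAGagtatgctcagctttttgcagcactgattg

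Med21-204 had 10.3, 16.3, 16.2 and 22.7 FPKM in the 4 Med13-MO libraries, against 6.59, 8.05, 9.20 and 10.8 FPKM in the 4 Scr-MO libraries. Med13-MO replicate 1 was below the highest Scr-MO library, and the other 3 Med13-MO libraries were above all Scr-MO libraries. The means were 16.4 ± 5.08 and 8.65 ± 1.77 FPKM (SD, n = 4 each), and the log2 difference was 0.82 ± 0.22 (SE; limma adjusted p = 0.0264). The call was lost without Med13-MO replicate 2 (limma adjusted p = 0.0744), 3 (0.0664) or 4 (0.0544), without Scr-MO replicate 1 (0.0759) and with no filter (0.112).

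Med21-204 made up 28.0% of the summed Med21 FPKM in Med13-MO and 20.7% in Scr-MO. The coding transcript Med21-201 had 17.3 ± 3.22 FPKM in Med13-MO and 14.0 ± 4.17 FPKM in Scr-MO, and did not pass (log2 difference 0.31, limma adjusted p = 0.353). Med21-205 gave 0.42 (limma adjusted p = 0.191), Med21-202 gave 0.14 and Med21-203 gave 0.19. Med21-204 has no base that is absent from every other Med21 row, so its value rests on how fragments were shared among rows, which the sources used here do not give. The isoform usage test gave an unadjusted p of 0.235 for Med21 (limma diffSplice).

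Over all members, 30 of 34 transcript rows had a mean of at least 1 FPKM, and 3 passed, 2 higher (Med21-204 and the single Med26 row) and 1 lower (Med14-202). Of all rows tested, 15.7% passed, 8.17% higher and 7.57% lower. In 5 of the 30 tested rows the groups did not overlap, against 20.9% of all rows tested. The isoform usage test could be run for 5 members with several rows (Med1, Med7, Med14, Med21 and Med31). It called 0 of them (limma diffSplice), and 0 had an unadjusted p below 0.05, while 2.62% of the 4053 genes it covered were called.

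Med7 and Med31 are the partners of MED21 in the middle module, where MED31, known from yeast as Soh1, binds the N-terminal part of MED7. Med7 had 16.5, 17.4, 15.95 and 13.8 FPKM in the 4 Med13-MO libraries, against 15.7, 17.7, 14.8 and 17.3 FPKM in the 4 Scr-MO libraries. The groups covered the same range, and the log2 difference of -0.04 had a 95% interval of 0.781 to 1.21 as a fold of FPKM + 1. Med7 has 9 annotated rows (11:46436925-46442721, plus strand), led by Med7-201 at 4.97 ± 0.400 FPKM in Med13-MO and 5.45 ± 0.887 FPKM in Scr-MO. The short row Med7-207 was the exception, at 1.18 ± 0.2004 FPKM in Med13-MO and 0.619 ± 0.273 FPKM in Scr-MO with no overlap, and it was below the filter and untested. Its values rest on 13 to 22.5 fragments per library in Med13-MO and 4.5 to 12 in Scr-MO. Of its 381 bases, 24 are in no other Med7 row.

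Med31 had 29.4, 36.9, 42.1 and 43.2 FPKM in the 4 Med13-MO libraries, against 24.7, 29.9, 35.5 and 37.4 FPKM in the 4 Scr-MO libraries. The groups overlapped in the middle of their ranges. The log2 difference was 0.24 ± 0.18 (SE; limma adjusted p = 0.376), with a 95% interval of 0.900 to 1.56 as a fold of FPKM + 1. The coding row Med31-201 held most of the level, at 31.2 ± 5.60 FPKM in Med13-MO and 25.1 ± 4.91 FPKM in Scr-MO, and the retained-intron row Med31-202 had a log2 difference of -0.01. Antisense genes overlap 21.2% of the exonic bases of Med7 and 26.3% of those of Med31.

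Med4 and Med9 encode a pair of subunits that bind each other in the middle module. Med4 had 9.46, 15.9, 14.9 and 21.9 FPKM in the 4 Med13-MO libraries, against 13.4, 15.04, 13.6 and 13.4 FPKM in the 4 Scr-MO libraries. Its Med13-MO libraries ran from below to above the whole Scr-MO range, with a coefficient of variation of 32.9% in Med13-MO and 5.77% in Scr-MO. The log2 difference was 0.10 ± 0.21 (SE; limma adjusted p = 0.764) and its interval, 0.783 to 1.47 as a fold of FPKM + 1, was wide.

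Med9 had 3.48, 6.43, 5.46 and 5.24 FPKM in the 4 Med13-MO libraries, against 4.93, 4.89, 4.41 and 4.26 FPKM in the 4 Scr-MO libraries. Med13-MO replicate 1 was again the lowest of all 8 libraries, and the groups overlapped. The log2 difference was 0.11 ± 0.17 (SE; limma adjusted p = 0.697), with an interval of 0.834 to 1.39 as a fold of FPKM + 1. Both genes have 1 row each and share no exonic base with another gene.

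Med1 encodes the subunit that nuclear receptors bind through its LXXLL motifs. It had 28.4, 28.9, 29.1 and 28.0 FPKM in the 4 Med13-MO libraries, against 27.9, 25.1, 33.4 and 35.7 FPKM in the 4 Scr-MO libraries. The Med13-MO libraries were nearly alike, with a coefficient of variation of 1.72%, and all lay inside the Scr-MO range, where it was 15.96%. The log2 difference was -0.08 ± 0.15 (SE; limma adjusted p = 0.752), with an interval of 0.750 to 1.19 as a fold of FPKM + 1. Of its 7 rows, Med1-203 was the only row whose groups did not overlap, at 5.86 ± 0.215 FPKM in Med13-MO and 6.70 ± 0.563 FPKM in Scr-MO, and it did not pass (limma adjusted p = 0.449).

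Nuclear receptors and coactivators that bind MED1 or act with it were described from a list of 25 genes, of which 17 passed the filter. Of these, 0 were called higher and 1 lower, which is 5.88% against 17.1% of all genes tested. An unadjusted p below 0.05 in limma was found for 3 of them (17.6%), against 32.4% of all genes tested, and the median log2 difference was -0.02. The lower gene was Nr5a2, a nuclear receptor active in early embryos, at 25.7 ± 6.85 FPKM in Med13-MO and 46.2 ± 7.53 FPKM in Scr-MO (log2 difference -0.85, limma adjusted p = 0.0174). Its call was lost without Med13-MO replicate 2 (limma adjusted p = 0.0535) or Scr-MO replicate 3 (0.0537) and with no filter (0.0687).

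Med19 encodes a subunit that, in yeast, is needed for stable binding of the polymerase by Mediator. It was the least abundant member, at 1.36, 2.15, 1.61 and 3.62 FPKM in the 4 Med13-MO libraries, against 2.98, 2.03, 3.75 and 2.63 FPKM in the 4 Scr-MO libraries. The groups overlapped, and Med13-MO replicate 4 was well above the rest of its group. The log2 difference was -0.30 ± 0.22 (SE; limma adjusted p = 0.351), with an interval of 0.587 to 1.12 as a fold of FPKM + 1. These values rest on 79.5 to 303.5 fragments per library, against 4730.5 to 11815.5 for Med14. Its coefficient of variation was 46.2% in Med13-MO and 25.2% in Scr-MO. Of the exonic bases of Med19, 12.87% overlap the antisense genes Tmx2 and Zdhhc5, and the sources do not give whether counting used the strand. Zdhhc5 was well above Med19, at 22.7 ± 1.72 FPKM in Med13-MO and 20.9 ± 5.01 FPKM in Scr-MO. Tmx2 had 1.21 ± 0.417 FPKM in Med13-MO and 1.28 ± 0.201 FPKM in Scr-MO.

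The members covered a wide range of levels. Med21, Med14, Med31 and Med1 were the most abundant, and 94.7%, 93.1%, 91.6% and 90.0% of the genes tested had a lower mean over all libraries. Med9 and Med26 lay near the middle of the genes tested (52.3% and 54.8% had a lower mean) and Med19 lay below it (32.4%). In Med13-MO embryos the order of mean summed FPKM was Med21, Med31, Med14, Med1, Med7, Med4, Med10, Med26, Med9 and Med19. In Scr-MO embryos it was Med14, Med21, Med31, Med1, Med7, Med4, Med10, Med9, Med26 and Med19.

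Most neighbours in these orders overlapped across libraries. Those that did not were Med14 and Med1, Med1 and Med7, and Med10 and Med26 in Med13-MO embryos, and Med1 and Med7, Med4 and Med10, and Med10 and Med9 in Scr-MO embryos. Genes with many rows would be overstated by the sum if a fragment counted in several rows, which the sources used here do not give. By the most abundant row alone, Med31 led in both groups (31.2 FPKM in Med13-MO and 25.1 FPKM in Scr-MO), and Med14 came after Med31, Med21, Med4 and Med10 in Med13-MO embryos at 10.8 FPKM and after Med31 only in Scr-MO embryos at 18.1 FPKM.

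In some libraries most members lay on the same side of their group mean. In Med13-MO replicate 1, 1 of 10 members (Med7) was above its group mean, and the median deviation of the members was -0.36 on the log2(FPKM + 1) scale, against -0.07 over all genes tested. In Med13-MO replicate 4, 8 of 10 were above, with a median of 0.16 against 0.10 over all genes. In sample order, the Med13-MO libraries had 1, 7, 7 and 8 of 10 members above their group mean. The Scr-MO libraries had 2, 4, 7 and 6 of 10, with medians between -0.15 and 0.14. Whether libraries at the same place in this order share a collection or a run is not given by the labels, and was not tested. The members farthest below their group mean in Med13-MO replicate 1 were Med4 (-0.61), Med21 (-0.47), Med9 (-0.43) and Med26 (-0.40).

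**Figure D3:**
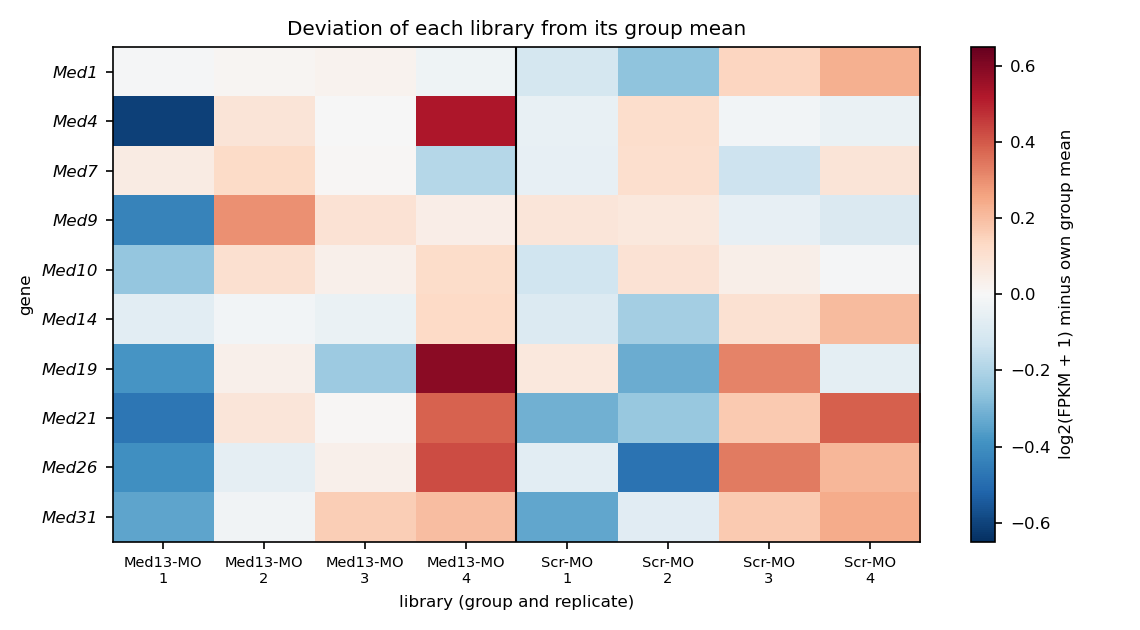
Deviation of each library from its own group's mean, on the log2(FPKM + 1) scale, for the 10 genes (rows) in the 4 Med13-MO and 4 Scr-MO libraries (columns, parted by the black line). Red is above the group mean and blue below. Med13-MO replicate 1 is blue in 9 of 10 rows, with a median of -0.36.

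Set against the rest of Mediator, the middle subunits and Med14 held a share of its summed FPKM that overlapped between the groups. They took 35.9%, 39.7%, 38.3% and 38.7% of the summed FPKM of all Mediator genes in the 4 Med13-MO libraries, against 36.1%, 41.0%, 38.4% and 39.2% in the 4 Scr-MO libraries. The ranges overlapped. In absolute terms they summed to 175, 220, 217 and 249 FPKM in the Med13-MO libraries, against 179, 182, 217 and 233 FPKM in the Scr-MO libraries.

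The head, tail and kinase modules were read from the same limma fit, in which 17.1% of all genes were called and 32.4% had an unadjusted p below 0.05. Of the 11 head genes, 2 (18.2%) had an unadjusted p below 0.05 in limma, and 1 (9.09%) was called higher and 0 lower. The gene was Med11, at 7.14 ± 1.87 FPKM in Med13-MO and 3.87 ± 0.297 FPKM in Scr-MO (log2 difference 0.71, limma adjusted p = 0.0177, lost without Med13-MO replicate 3 at 0.0589 and with no filter at 0.0579). Of the 5 tail genes, 2 (40%) had an unadjusted p below 0.05 in limma, and 1 (20%) was called higher and 0 lower. The gene was Med15, which contacts activators in yeast and mammals, at 11.3 ± 1.96 FPKM in Med13-MO and 5.92 ± 1.39 FPKM in Scr-MO (0.83, limma adjusted p = 0.0105). Of the 7 kinase module genes, 0 passed in limma and 1 (14.3%) had an unadjusted p below 0.05, namely Cdk8, at 60.6 ± 4.46 FPKM in Med13-MO and 44.4 ± 5.32 FPKM in Scr-MO (limma adjusted p = 0.0634). The median log2 differences were 0.08 for the head, -0.27 for the tail and 0.05 for the kinase module.

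RNA polymerase II, the enzyme that Mediator's middle and head modules hold, was described from its 12 subunit genes. Of these, 2 were called higher and 0 lower, and their 16.7% is about the 17.1% of all genes tested. An unadjusted p below 0.05 in limma was found for 3 of them (25%), against 32.4% of all genes tested, and the median log2 difference was -0.01. Polr2g, which encodes the stalk subunit RPB7, had 11.3 ± 1.81 FPKM in Med13-MO and 4.80 ± 0.662 FPKM in Scr-MO (1.08, limma adjusted p = 0.00138), and passed under every alternative run on it. Polr2j, which encodes the core subunit RPB11, had 56.7 ± 7.91 FPKM in Med13-MO and 38.9 ± 3.40 FPKM in Scr-MO (0.53, limma adjusted p = 0.0396), and lost its call in 6 of 8 fits without 1 library (limma adjusted p up to 0.132) and with no filter (0.0862).

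**Figure D4:**
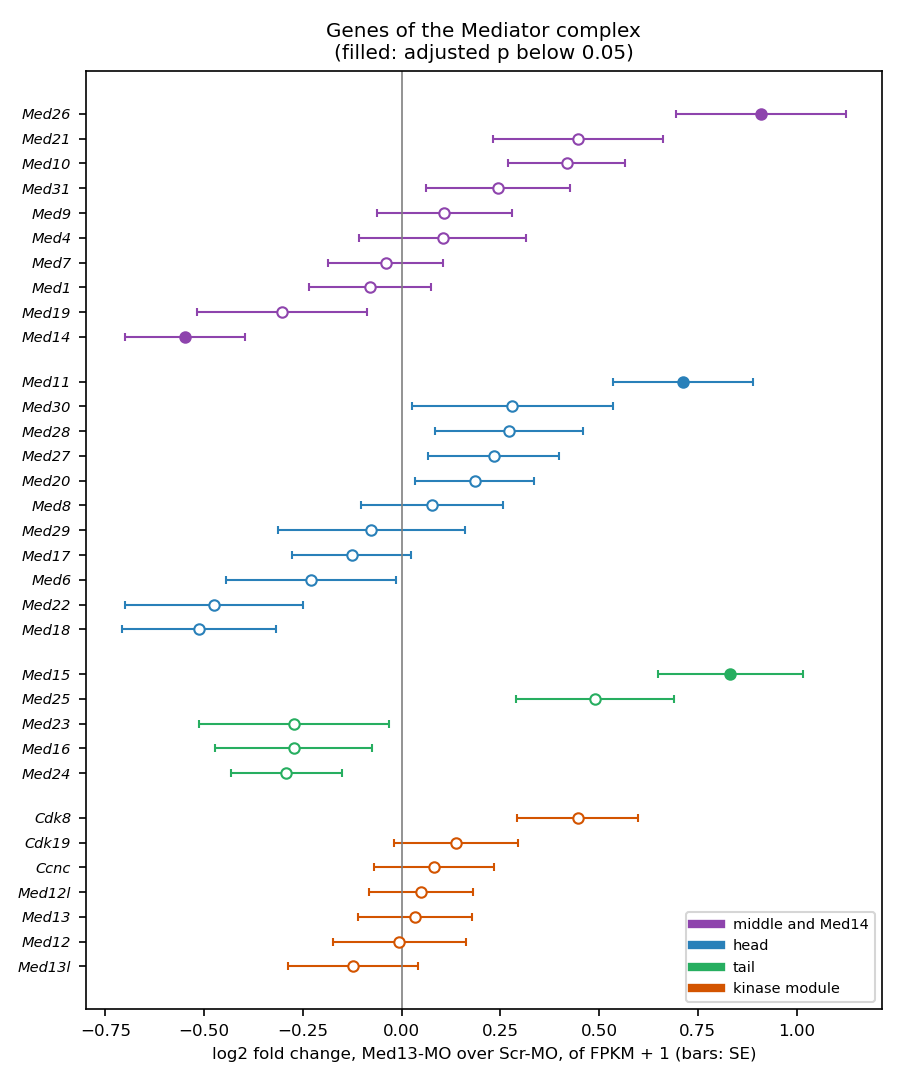
Log2 difference (Med13-MO over Scr-MO, of FPKM + 1) with its SE for the genes of the 4 Mediator modules, ordered within each module. Filled points passed limma at an adjusted p below 0.05: Med26, Med11 and Med15 to the right of 0 and Med14 to the left.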

How the data were processed

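The authors deposited 1 table of FPKM values per annotated transcript. Per the submitters' processing notes, BWA and the mm10 build were used, and the sources used here do not give the counter, annotation release or strand setting. Per the labels' protocols, RNA was amplified to cDNA with an Ovation kit and 400 ng went into each TruSeq library. The 8 columns matched the samples' labels (0 unmatched). In 3758 rows, all with a hyphen in the symbol, values stand 1 column off and text stands in a value column. They hold 0 member rows and were left out. Transcript structures came from GENCODE M21 (GRCm38), which matched 98.7% of rows.

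Rows were summed per symbol. Genes and rows with a mean FPKM of at least 1 were compared on the log2(FPKM + 1) scale in limma 3.58.1 (R 4.3.3), two-sided, with a trend of variance on level, no covariate, and Benjamini-Hochberg adjustment over all of them (threshold 0.05). A log2 difference on this scale understates the change of low genes. The replicates of a group are separate embryo collections, so p-values measure the spread between collections within groups. Whether the Med13-MO and Scr-MO groups shared collections is not given by the labels. Isoform usage was tested with diffSplice, and Med13 by exact permutation. The scripts were tested on simulated data. The alternatives were pseudocount 0.1, no filter or a mean of at least 5, median-ratio or quantile scaling, protein-coding or most abundant transcripts only, sample weights, no trend, and leaving out each library. Named were all members and their tested rows, Med13, and up to 4 genes past the threshold in each partner list. Gm17435, Gm26819, Tmx2, Zdhhc5, Npm2, Kit, Mos and Med7-207 were added to these once their values were known. The members and lists were chosen with earlier results of these data known. Reads carry no molecular identifiers.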

Additional observations from a re-analysis of the deposited data

Results flagged for a closer look

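In 92 groups of 4 libraries checked for a library far from the others (Dixon's 95% limit), 2 were found. Chance gives about 5 percent of groups. Med4 in Scr-MO replicate 2 was at 15.04 FPKM, while the other 3 Scr-MO libraries lay at 13.35 to 13.63 FPKM. The kinase module took 26.54% of the summed Mediator FPKM in Med13-MO replicate 1, against 20.75% to 21% in the other 3 Med13-MO libraries. That Mediator sum includes the 10 genes described here, Med14 among them, of which 9 were below their group mean in this library. These are therefore not separate observations. The kinase module itself summed to 130 FPKM in Med13-MO replicate 1, against 115, 119 and 133 FPKM in Med13-MO replicates 2, 3 and 4.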

How the results depend on the processing

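The number of all genes called, 2010, became 1012 with no filter, 1137 at a mean FPKM of at least 5 and 4336 with sample weights, and 956 to 2404 without 1 library. Of the called genes 54.3% were higher, against 39.5% with sample weights and 43.7% without Scr-MO replicate 2. Members higher, 1, became 0 with no filter and 2 with median-ratio scaling, quantile normalization or sample weights, and 1 to 2 without 1 library. Members lower, 1, became 0 with no filter, and 0 to 1 without 1 library. Partner genes higher, 4, became 2 with no filter, 7 with quantile normalization and 8 with sample weights, and 2 to 5 without 1 library. Partner genes lower, 3, became 1 with no filter and 13 with sample weights, and 1 to 6 without 1 library. Member transcript rows higher, 2, became 0 with no filter, and 1 to 3 without 1 library. Member transcript rows lower, 1, became 6 with sample weights, and 1 to 4 without 1 library. The cause was not tested.

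Med13's log2 difference ran from -0.00105 to 0.101 without 1 library. Isoform usage called 0 members under every alternative run. Among genes and rows, only values that did not pass turned sign. Some list medians, which were not tested, turned sign too. The head median, 0.08, became -0.024 with sample weights, and that of the polymerase subunits, -0.01, became 0.041 with quantile normalization. The median of the list of MED1 receptors and coactivators, -0.02, became 0.059 with the most abundant transcript only. Med7 became 0.014 with quantile normalization and 0.048 with sample weights. Med7-203 became 0.0066 with median-ratio scaling, 0.024 with quantile normalization and 0.13 with sample weights. Med1-204 became 0.013 and Med31-202 0.024 with median-ratio scaling, and 0.018 and 0.054 with quantile normalization. With sample weights Med7-201 became 0.019, Med7-209 0.045 and Med1-206 -0.027. Without 1 library Med4 and its row ran from -0.071 to 0.31, Med7 from -0.086 to 0.023, Med1-201 from -0.21 to 0.010, Med7-202 from -0.0050 to 0.19, Med7-203 from -0.097 to 0.086, Med1-204 from -0.24 to 0.10, Med7-204 from -0.22 to 0.011, Med31-202 from -0.11 to 0.053, Med1-206 from -0.058 to 0.23, Med1-207 from -0.24 to 0.011 and Med7-209 from -0.16 to 0.011.

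No paired analysis was run. The labels give the groups no shared replicate numbers, and the numbers used here follow sample order and only name the libraries. Library codes in the sample titles alternate between Scr-MO and Med13-MO, and the labels do not say whether neighbouring codes share a collection. If they do, the unpaired fits leave that pairing out, and its effect on the p-values was not tested. For the 8 members that did not pass, the 95% intervals began between 0.587 and 1.07 and ended between 1.12 and 1.88 as folds of FPKM + 1.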
